A study of Mus musculus with 4 samples.

Results

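The genes described here are 10 members of the ETS family of transcription factors outside the PEA3 subfamily: Ets1, Ets2, Elf1, Elf3, Elf5, Ehf, Elk1, Elk3, Elk4 and Erf. They were taken by name from the 28096 gene identifiers of each deposited table, and all 10 were found by Entrez identifier. The mouse family has 26 listed members, of which the remaining 16 serve as context.

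ETS factors share a DNA-binding domain, the ETS domain, that reads a GGA core in DNA, and differ in the parts that surround it. Many are direct targets of the RAS and ERK pathway. ERK phosphorylates Ets1 and Ets2 beside a pointed domain and activates them, phosphorylates Elk1, Elk3 and Elk4 so that they activate genes together with the serum response factor, and phosphorylates the repressor Erf so that it leaves the nucleus. Elf3, Elf5 and Ehf form the ESE group, named for epithelium-specific ETS, and Elf1 is a broadly expressed factor first known from lymphocytes.

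Polyadenylated RNA was sequenced from cultured alveolar type II cells, which make surfactant and renew the alveolar lining, in 4 libraries that carry the genotype label KRasEtv wt. The cells had been sorted from mouse lung by EpCAM and the absence of CD24, CD45, CD31 and podoplanin, kept in matrigel with BEGM and 100 nM 4-hydroxytamoxifen (4OHT) for 4 days, and kept for 1 further day without 4OHT. The design text lists 3 genotypes with 4 mice each, KRaswt/d12;RosaCreERT2, the same with Etv5loxp/loxp, and the latter with Etv4KO/KO added. All 3 carry the KRaswt/d12 allele and RosaCreERT2, a Cre recombinase made active by 4OHT. The labels do not state which of these genotypes KRasEtv wt names, ages and sexes are not given, and libraries of other labels were not analysed here. The data therefore hold a single group and no contrast between conditions. The levels of the 10 genes, their order within each library and their spread between libraries are what can be measured. Libraries 1 to 4 are numbered by accession, and no label says which mouse each came from. The p-values therefore measure only the spread between these libraries, which may be technical.

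Total counts were 12133251 to 13591876 per library. Mitochondrial ribosomal RNA (mt-Rnr1 and mt-Rnr2) took 19.6% to 38.9% of them, least in library 3 and most in library 4. All 11 type II markers examined averaged 1 nRPKM or more, as did 42.4% of all identifiers. The sum of the markers ran from 10269 nRPKM in library 1 to 22315 in library 3, with all 11 lowest in library 1. The nRPKM is the authors' RPKM, a read count per gene length and library size, adjusted by a size factor. Library 3 stood apart in sex-linked genes, with Xist at 66.3 nRPKM against 0.255 to 0.784 elsewhere. Its Y-linked Eif2s3y level was 0.243 nRPKM, against 14.6 to 23.2 in the other libraries.

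What the family shares at the DNA level is shown by the 45 coding bases of the recognition helix of the ETS domain, the helix that lies in the major groove and carries the arginines that touch the GGA core. The stretches were read from the longest protein-coding transcript of each gene in GENCODE M21 (GRCm38). Capitals mark a base that differs from the most frequent base of the 10 genes at that position. At positions 19 and 43, counted from 1 at the 5′ end of the stretch, A and C were each found in 5 genes, and C was put in capitals by choice.
Ets1: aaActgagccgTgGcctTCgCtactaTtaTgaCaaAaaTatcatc
Ets2: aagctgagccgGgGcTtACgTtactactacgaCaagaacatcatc
Elf1: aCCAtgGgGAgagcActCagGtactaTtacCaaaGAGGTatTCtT
Elf3: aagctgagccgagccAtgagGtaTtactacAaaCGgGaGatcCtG
Elf5: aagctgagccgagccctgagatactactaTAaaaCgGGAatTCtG
Ehf: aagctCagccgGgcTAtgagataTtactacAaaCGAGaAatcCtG
Elk1: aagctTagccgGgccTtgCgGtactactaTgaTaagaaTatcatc
Elk3: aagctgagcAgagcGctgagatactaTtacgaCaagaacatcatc
Elk4: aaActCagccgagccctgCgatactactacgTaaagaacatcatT
Erf: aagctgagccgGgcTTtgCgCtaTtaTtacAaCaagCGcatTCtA
These stretches matter for the counts because only uniquely aligned reads were counted. Even here, in the most conserved part of the proteins, 16 of 45 positions were identical in all 10 genes and every pair differed by at least 6 bases. The closest pair was Elf3 and Ehf with 6 differences, followed by Ets2 and Elk1 with 7, and the most distant differed by 24. In Ets2 the stretch lies in exon 10 of 10 at chr16:95718974-95719018 on the plus strand. In Ets1 it lies in exon 8 of 8 at chr9:32754264-32754308 on the plus strand. In the other 8 genes it is split between exons by an intron.

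Over whole transcripts, no 50-base word of Ets1, Ets2, Elf5, Ehf or Erf occurred in another annotated gene. Words shared with another gene made up 9.41% of the Elf1 transcript, 6.51% of Elk3, 5.72% of Elf3, 2.14% of Elk4 and 0.943% of Elk1. Elk3 shares its words with Cdk17, whose exons overlap its own on the opposite strand, and Elf3 with the opposite-strand gene Gm26642. Elf1 overlaps Wbp4 on the opposite strand, but its words are found in 152 genes. Elk4 overlaps Mfsd4a on the opposite strand and Gm29103 on its own strand, and Elk1 overlaps Uxt on its own strand, by 1.31% to 1.62% of their exon bases. Whether the authors' counting used strand is not stated, so a part of the counts of these 5 genes cannot be told apart from those of their partners.

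All 10 genes were detected in every library, with counts from 50 (Elf3 in library 4) to 1394 (Elk3 in library 3). Their summed level was 76.2, 79.8, 81.1 and 79.7 nRPKM in libraries 1 to 4, or 79.2 ± 2.09 (SD, n = 4). This came to 56.9% ± 3.30 of the summed level of the 26 family members. Etv5, the PEA3 gene with the highest level in the family, added 12.8% to 24.9%. Words shared with another gene made up 26.8% of the Etv5 transcript, all with Gm4798, and 19.0% of that of Etv1. Since only uniquely aligned reads were counted, both levels and the family sum may be understated. That was not tested. On this size-factor-adjusted scale, the summed level of the 10 genes was thus nearly the same in every library while single members varied. The steadiness of the sum was not checked on counts scaled to raw library totals.

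The 10 genes fell into an upper and a lower set of 5. Ets2, Elk3, Elf1, Elk4 and Ehf had means from 11.7 to 14.8 nRPKM, and Elf5, Elk1, Elf3, Erf and Ets1 had means from 2.17 to 2.98. No library value of the upper set was under 9.56 nRPKM, and none of the lower set was over 3.96. The upper 5 held 84.5% ± 2.07 of the summed level of the 10 genes (SD, n = 4). A mean of 5 nRPKM or more was found for 5 of the 10 genes, for 3 of the 16 other family genes and for 23.4% of all identifiers. Each of the 3 multi-gene subfamilies had members in both sets. The division into sets was made after the values were seen and is a description.

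**Figure D1:**
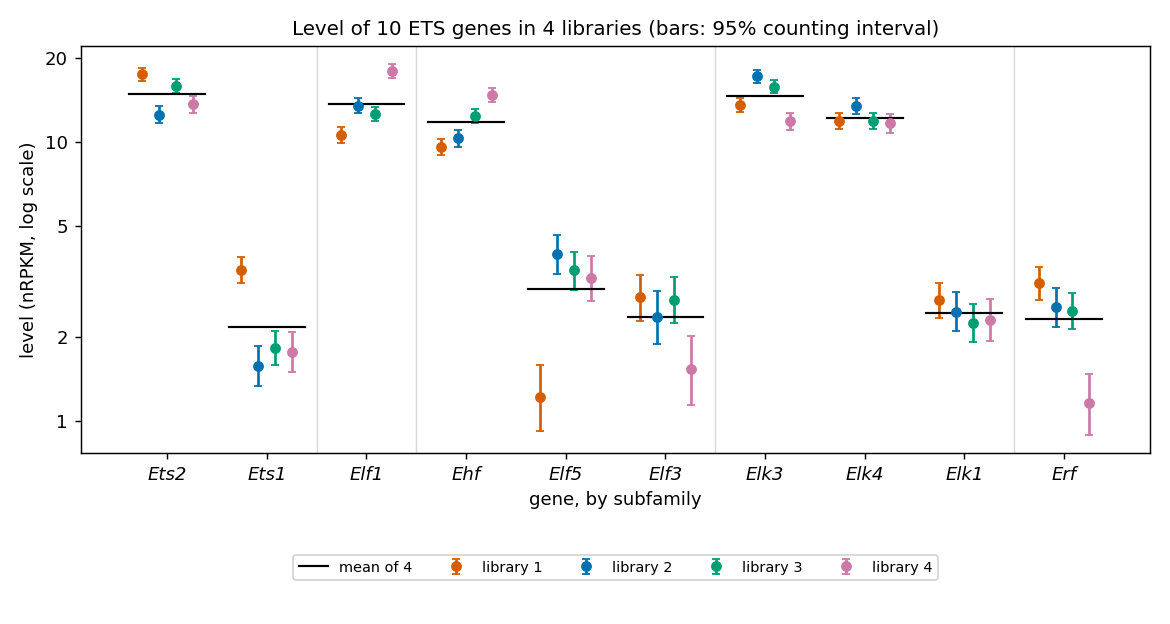
Level of each gene (nRPKM, log scale) in libraries 1 to 4, with genes side by side by subfamily; points are libraries, bars are 95% Poisson counting intervals and black lines are means of 4. Ets2, Elf1, Ehf, Elk3 and Elk4 lie between 9.56 and 17.9 nRPKM and the other 5 genes between 1.16 and 3.96; Ets1 and Elf5 in library 1 and Erf in library 4 lie away from the other points.

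Ets2 and Ets1, the pointed-domain factors, lay in different sets. Ets2 (Entrez 23872) had 17.4, 12.5, 15.8 and 13.6 nRPKM in libraries 1 to 4 on 789 to 1263 reads, with a mean of 14.8 ± 2.21 (SD, n = 4). Ets1 (Entrez 23871) had 3.48, 1.58, 1.83 and 1.77 nRPKM, from 142 to 359 reads, with a mean of 2.17 ± 0.883. Ets2 lay above Ets1 in every library, by 5.01, 7.91, 8.64 and 7.70 times, and both were highest in library 1. The log2 difference, taken here and below on log2(nRPKM + 1), was 2.35 ± 0.22 (SD, n = 4), with p = 0.125 in an exact permutation test, two-sided, that flips signs of library differences. That is the smallest p that 4 libraries allow, so no difference between genes could pass 0.05 in this design.

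Ets1 stood out in library 1. Its counting interval there was 3.13 to 3.86 nRPKM, clear of the intervals of the other libraries, whose highest upper bound was 2.11. Ets1 is known as a factor of lymphocytes, endothelium and stroma as well as of epithelium. Markers of such cells also varied. The sum of 12 leukocyte markers was 88.5, 76.4, 43.5 and 29.8 nRPKM in libraries 1 to 4, with none at 0 in all libraries, that of 6 basal cell markers was 150, 103, 20.9 and 48.4, and that of 10 mesenchymal markers was 483, 466, 558 and 442. The mesenchymal sum was mostly Sparc, and 5 of the 10 genes were highest in library 1, Dcn among them at 14.1 nRPKM against 0.962 to 4.41. Of 13 endothelial markers, the 11 other than Esam and Egfl7 summed to 1.89, 0.519, 0.349 and 0.857 nRPKM, with Sox17 and Erg at 0 counts in every library. The leukocyte and basal sums were highest in library 1, as Ets1 was, but were next highest in library 2, where Ets1 was lowest. Of the 12 leukocyte markers, 4 were highest in library 1 and 5 in library 2. Not all of them are of lymphocytes: in library 1 Cd68 alone had 35.3 nRPKM, and Ptprc had 0.381. The part of these cells in the Ets1 level was not tested. In bulk RNA, more cells of a type and more RNA per cell cannot be told apart.

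Elf1 (Entrez 13709) was the third in level, with 10.6, 13.4, 12.6 and 17.9 nRPKM on 908 to 1228 reads. Its mean was 13.6 ± 3.08 (SD, n = 4), lowest in library 1 and highest in library 4. The leukocyte sum given above had its extremes in the same libraries but the other way round. In that sum Cd68 averaged 21.7 and Cd14 15.2 nRPKM, and Ptprc 0.422. The part of leukocytes in the Elf1 level was not tested.

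Among the ESE genes Ehf was predominant. Ehf (Entrez 13661), a factor of epithelia in airway, gut and glands, had 9.56, 10.3, 12.4 and 14.7 nRPKM from 800 to 1138 reads, with a mean of 11.7 ± 2.32 (SD, n = 4). Elf3 (Entrez 13710), which is induced in epithelia by inflammatory signals, had 2.77, 2.37, 2.72 and 1.53 nRPKM from only 50 to 114 reads, with a mean of 2.35 ± 0.572. Elf5 (Entrez 13711), known from mammary alveolar cells and the distal tips of the embryonic lung, had 1.22, 3.96, 3.47 and 3.25 nRPKM from 56 to 163 reads, with a mean of 2.98 ± 1.21. The members did not share an order of libraries: Ehf and Elf5 were both lowest in library 1, whereas Elf3 was lowest in library 4, where Ehf was highest.

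Ehf exceeded Elf3 by 3.45 to 9.58 times and Elf5 by 2.59 to 7.82 times over the libraries. The log2 differences were 1.93 ± 0.49 and 1.73 ± 0.45 (SD, n = 4; p = 0.125 for each by the same exact test). The order of Elf5 and Elf3 was not stable. Elf5 was at 0.441 times the Elf3 level in library 1 and at 1.67, 1.27 and 2.12 times in libraries 2 to 4, a mean log2 difference of 0.20 ± 0.67 (exact permutation test, p = 0.625). Ciliated and club cell markers, of airway types that can also express ESE genes, summed to 11.3, 17.7, 18.3 and 15.1 nRPKM and to 320, 1060, 150 and 281 nRPKM in libraries 1 to 4. The ciliated sum is mostly Tppp3, which had 7.66 nRPKM in library 1, where Elf5 and Ehf were low, and 9.77 to 14.6 in the others, whereas Foxj1 and Rsph1 were highest in library 1. Of the 6 ciliated markers, 2 were highest and 2 lowest there. Their part in those levels was not tested.

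Elf5 had the widest range of the 10 genes on the log2(nRPKM + 1) scale, 1.16. With CPM on raw totals the ranges of Erf and Ets1, 1.72 and 1.38, exceeded that of Elf5, 1.28. The Elf5 counting interval in library 1, 0.924 to 1.59 nRPKM, lay wholly below those of libraries 2 to 4, whose lowest bound was 2.69. By the rule set for likeness, the root mean square difference of mean-centred log2 levels over 4 libraries, the genes nearest to Elf5 among 6020 with a mean of at least 5 nRPKM were Ccnb2 (0.0430), a cyclin of mitosis, and Abca3 (0.0438), the lipid transporter of lamellar bodies. Abca3 had 28.5, 61.5, 59.2 and 56.9 nRPKM, and so shared the low value in library 1 with Elf5. In fold the range was 3.24 for Elf5 and 2.16 for Abca3, since adding 1 before the log narrows low levels more than high ones. The small distance therefore holds for that scale only. Abca3 is among the 11 type II markers that were all lowest in library 1. Without library 1, the log2 range of Elf5 fell from 1.16 to 0.22, and that of Erf, 0.72, was then the widest.

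The ternary complex factors made up the largest share of the 10 genes, with a summed level of 29.2 ± 3.09 nRPKM, 36.8% ± 3.74 of the total (SD, n = 4). Elk3 (Entrez 13713), also called Net, which represses until phosphorylated, had 13.5, 17.2, 15.7 and 11.8 nRPKM from 816 to 1394 reads, with a mean of 14.6 ± 2.36. Elk4 (Entrez 13714), also called SAP-1, had 11.9, 13.5, 11.8 and 11.6 nRPKM from 695 to 909 reads, with a mean of 12.2 ± 0.852. Elk1 (Entrez 13712), the founding member, had 2.70, 2.47, 2.25 and 2.31 nRPKM from 133 to 195 reads, with a mean of 2.43 ± 0.202.

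Elk3 and Elk4 were close and Elk1 was well below both. Over the libraries Elk3 was 6.02 ± 1.10 times and Elk4 5.03 ± 0.463 times the level of Elk1 (SD, n = 4). Elk3 lay above Elk4 in all 4 libraries, by only 1.02 to 1.33 times (log2 difference 0.23 ± 0.16, SD, n = 4; p = 0.125 by the same exact test). In library 4 their counting intervals, overlapped. Elk1 is on the X chromosome, and library 3, with high Xist, had its lowest Elk1 level, 2.25 nRPKM, with an interval of 1.92 to 2.62 that overlapped those of the other libraries.

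Elk3 is often described from endothelium and mesenchyme. The defining endothelial genes Pecam1, Cdh5, Kdr, Tek and Tie1 had means of 0.112, 0.0910, 0.0910, 0.0759 and 0.00948 nRPKM. Of the other 8 endothelial markers, Esam averaged 15.4 and Egfl7 2.05 nRPKM, and the highest of the others was Calcrl at 0.398. Among mesenchymal markers Dcn averaged 5.52 and Col1a1 4.59 nRPKM, and Col1a1 was highest in library 2 at 6.66, as Elk3 was. Of the 10 mesenchymal markers, 2 were highest in library 2 and 5 in library 1. In library 3, 8 of the markers were lowest, whereas Elk3 was lowest in library 4, as was 1 marker. The part of either cell type in the Elk3 level was not tested.

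Erf (Entrez 13875), the ERK-controlled repressor, had 3.11, 2.56, 2.48 and 1.16 nRPKM from 66 to 222 reads, with a mean of 2.33 ± 0.828 (SD, n = 4). Library 4 was low, and its counting interval, 0.894 to 1.47 nRPKM, did not overlap those of libraries 1 to 3, whose lowest bound was 2.13. The genes nearest to Erf by the same measure were Mfsd5 (0.0327) and Mrpl20 (0.0354). Mrpl20 had 19.5, 17.2, 15.8 and 10.1 nRPKM, also lowest in library 4. For Ets1 the nearest genes were Dstn (0.0450) and the EGF receptor ligand Areg (0.0534). Areg had 227, 132, 155 and 152 nRPKM in libraries 1 to 4, highest in library 1 as Ets1 was. Adding 1 before the log narrows the low levels of Erf and Ets1 more than the higher levels of these genes. With 4 libraries such likeness is a description of these samples on that scale.

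The order of levels was compared for all 45 pairs of the 10 genes. In 27 pairs the same gene was higher in all 4 libraries. These were all 25 pairs of an upper-set with a lower-set gene and 2 of the 20 pairs within a set, Elk3 above Elk4 and Elf1 above Ehf. The smallest Benjamini-Hochberg adjusted p over the 45 pairs was 0.208 (two-sided exact permutation test). Of the 9 neighbours in the order Ets2, Elk3, Elf1, Elk4, Ehf, Elf5, Elk1, Elf3, Erf and Ets1, only Ehf and Elf5 differed beyond the SD of their difference, by 1.73 ± 0.45. For the other 8 the mean log2 difference, from 0.03 (Ets2 and Elk3) to 0.15 (Elf5 and Elk1), was smaller than its SD, from 0.16 to 0.59.

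**Figure D2:**
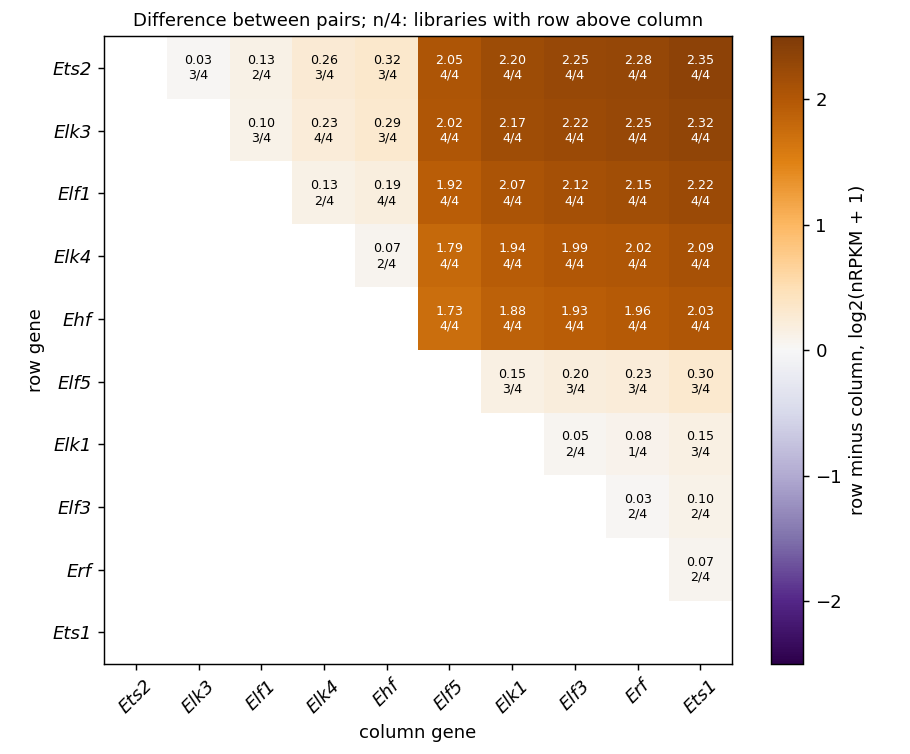
Mean difference in log2(nRPKM + 1) between row and column gene for the 45 pairs, with the number of 4 libraries in which the row gene was higher; genes are in order of mean level. The block of 25 upper against lower genes has differences from 1.73 to 2.35 with 4 of 4 libraries in the same order, and pairs inside each set differ by at most 0.32.

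Levels of different genes rest on the gene lengths the authors used. In CPM, counts scaled to library totals without length correction, the same 5 genes led, in the order Elk3 (90.8 ± 21.1), Elf1 (82.1 ± 7.24), Ets2 (78.5 ± 22.7), Ehf (74.4 ± 11.2) and Elk4 (65.5 ± 9.86 CPM; SD, n = 4). Order within each set differed between the scales, and the members of each set were the same.

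Spread between libraries was tested for each gene against genes of like abundance. None of the 10 genes was called at an adjusted p of 0.05 (edgeR quasi-dispersion, adjusted p from 0.973 to 0.998). Over all 13156 genes tested, 2 were called, or 0.0152%. At an unadjusted p under 0.05 the counts were 0 of the 10 genes and 5.13% of all genes, and DESeq2 marked none of the 10 as a dispersion outlier. The lowest p of the 10 were 0.0539 for Elf5, 0.0885 for Ets1 and 0.0908 for Erf in the edgeR test.

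The range between the highest and lowest library had a median of 0.57 log2 units over the 10 genes and 0.50 over all genes tested. On the log2(nRPKM + 1) scale, a range of at least 1 was found for 1 of the 10 genes, Elf5, and for 9.62% of all genes. With 0.1 added in place of 1, the ranges of Elf5, Erf and Ets1 were 1.62, 1.35 and 1.09 log2 units. The share of all genes is given only with 1 added. Elf5 had a 3.24-fold range, Erf 2.69, Ets1 2.20, Elf3 1.81, Elf1 1.69, Ehf 1.54, Elk3 1.45 and Ets2 1.39. Elk1 and Elk4 were the steadiest, with log2 ranges of 0.19 and 0.20, and 93.7% and 92.7% of tested genes had a range at least as wide. With CPM on raw totals their ranges were 0.66 and 0.51, and Elf1 was the steadiest at 0.27.

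Libraries 1 and 4 held most of the extremes. In library 1, Ets1, Ets2, Elf3, Elk1 and Erf were highest and Elf1, Elf5 and Ehf lowest. In library 4, Elf1 and Ehf were highest and Elf3, Elk3, Elk4 and Erf lowest. Library 1 was the highest for 23.3% and the lowest for 26.8% of all genes tested, and library 4 for 27.9% and 26.7%. In library 2, the highest for 25.4% and the lowest for 25.7% of all genes, Elf5, Elk3 and Elk4 were highest and Ets1 and Ets2 lowest. In library 3, the highest for 23.4% and the lowest for 20.8%, only Elk1 of the 10 genes was lowest and none was highest. Library 4 also had the largest share of mitochondrial ribosomal RNA, 38.9%, whose part in these levels was not tested. With TMM scaling all 10 genes had the same highest and lowest library. With CPM on raw totals, 6 of 10 kept the highest and 6 of 10 the lowest.

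**Figure D3:**
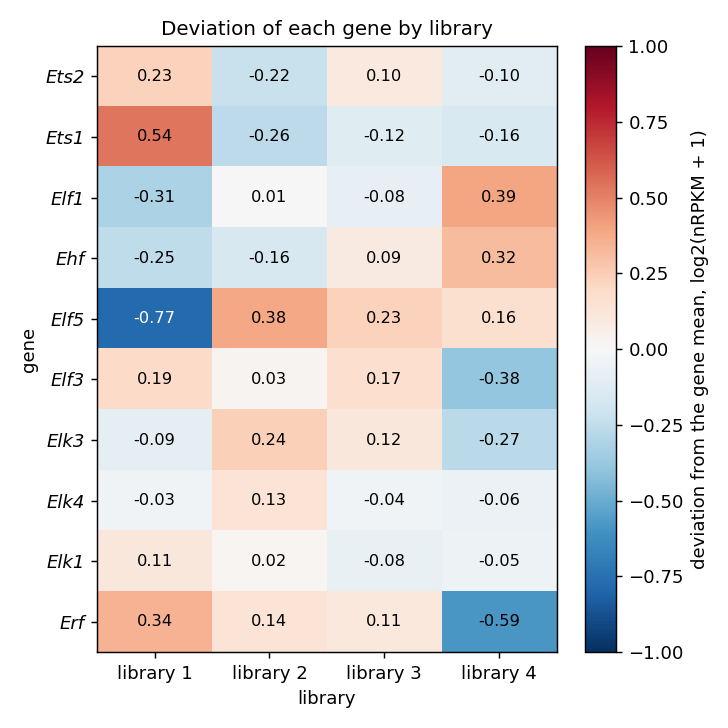
Deviation of each gene from its own mean over the 4 libraries, in log2(nRPKM + 1), for the 10 genes (rows, by subfamily) and libraries 1 to 4 (columns). Elf5 is at -0.77 and Ets1 at 0.54 in library 1, Erf is at -0.59 in library 4, and Elk1 and Elk4 stay between -0.08 and 0.13.

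Seen against the rest of the family, the upper 5 genes came directly after Etv5 in mean level. Of the other 16 genes, 8 averaged 1 nRPKM or more, as did 42.4% of all identifiers. Gabpa, a broadly expressed activator of nuclear genes for mitochondria, had 10.2 ± 2.18 nRPKM and Elf2, a close relative of Elf1, had 9.45 ± 0.393. In library 1, Ets2 (17.4 nRPKM) was above Etv5 (16.2), and Gabpa (10.4) and Elf2 (9.83) were above Ehf (9.56). In library 4, Gabpa (12.4) was above Elk3 (11.8) and Elk4 (11.6). In libraries 2 and 3 the upper 5 genes lay between Etv5 and the rest of the family. Etv6 (4.18 ± 0.652), Etv3 (3.90 ± 0.836) and Elf4 (2.57 ± 0.313) lay nearer the lower set (SD, n = 4 throughout). Spdef, another ETS factor of secretory epithelium, had 0.132 ± 0.0205 nRPKM from 4 or 5 reads, and the leukocyte factors Spi1 and Spib had 0.655 ± 0.373 and 0.0161 ± 0.0209. None of the 8 of these genes that could be tested was called for spread, against the same 0.0152% of all genes.

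**Figure D4:**
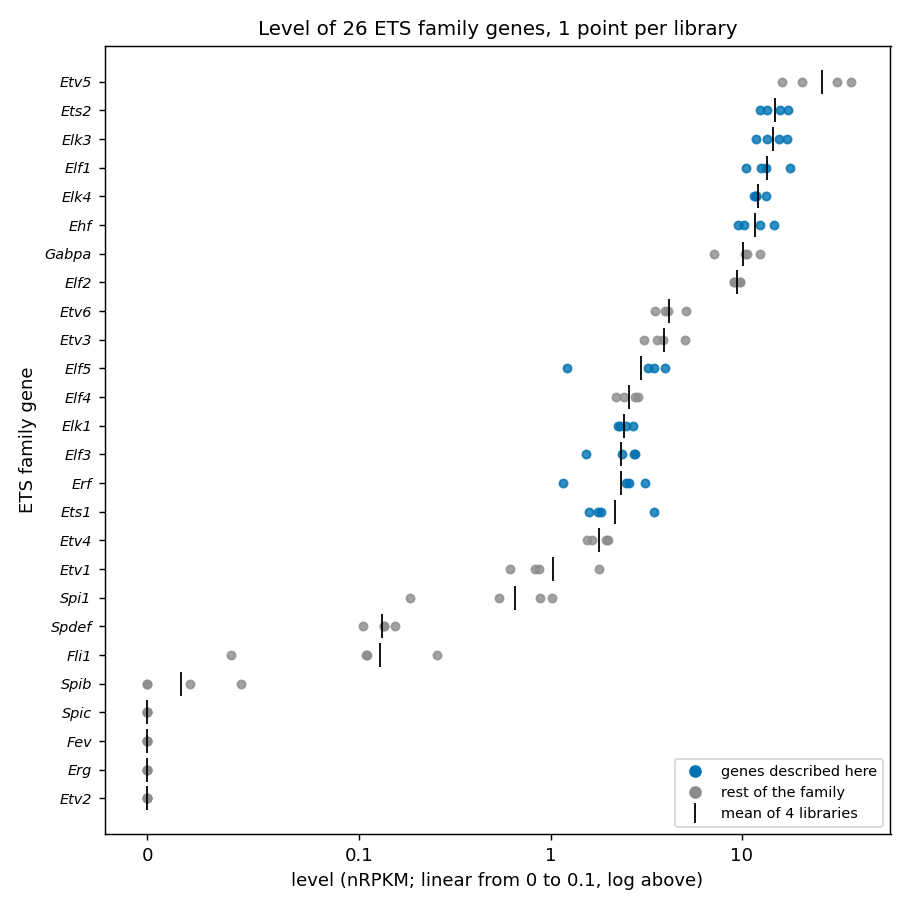
Level of the 26 ETS family genes (nRPKM, linear from 0 to 0.1 and log above), with 1 point per library and a bar at the mean of 4; the 10 genes described are blue and the other 16 grey. By mean level the 5 upper genes, from 11.7 to 14.8 nRPKM, follow Etv5, and the 5 lower genes lie between 2.17 and 2.98. Etv2, Erg, Fev and Spic sit at 0.

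Several ETS genes are neighbours on a chromosome. Per the order of coding genes in the RefSeq table, no coding gene lies between Ets1 and Fli1, between Ets2 and Erg, or between Ehf and Elf5. The genes of each pair had unlike levels. Ets1 had 2.17 ± 0.883 nRPKM and Fli1, a factor of blood and endothelium, 0.128 ± 0.0903 from 2 to 16 reads (SD, n = 4). Erg, an endothelial factor, had 0 counts in each library, which allows up to 3 counts or 0.221 to 0.247 CPM, beside 789 to 1263 reads of Ets2. Ehf and Elf5, both epithelial, were both detected in every library.

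Kinases and partners of the ternary complex factors were all present. All 11 listed genes averaged 1 nRPKM or more, as did 42.4% of all identifiers. None of the 11 tested was called for spread, against 0.0152% of all genes tested. The kinase gene Mapk3 had 62.6 ± 11.3 nRPKM, the p38 gene Mapk14 14.5 ± 4.05 and the JNK genes Mapk9 and Mapk8 9.03 ± 0.477 and 2.41 ± 0.457. Srf, the partner with which Elk1, Elk3 and Elk4 bind DNA, had 4.79, 5.93, 4.98 and 2.89 nRPKM in the 4 libraries. Srf was thus lowest in library 4, as Elk3 and Elk4 were. For Elk4 the counting interval in library 4, 10.8 to 12.5 nRPKM, overlapped those of libraries 1 and 3. The Srf cofactors Mrtfa and Mrtfb, which compete with ternary complex factors for it, had 4.79 ± 1.17 and 8.51 ± 1.27 nRPKM. The coactivators Crebbp and Ep300 had 18.2 ± 2.71 and 17.4 ± 2.87, and the mediator subunit Med23, which Elk1 and Elf3 contact, 3.74 ± 0.369 (SD, n = 4 throughout).

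Of 10 genes known as targets of Srf with the ternary complex factors, 7 averaged 1 nRPKM or more, as did 42.4% of all identifiers. None of the 8 tested was called for spread, against 0.0152% of all genes tested. The survival gene Mcl1 had 35.4 ± 4.47 nRPKM and the immediate early genes Fos 4.49 ± 1.82, Ier2 4.21 ± 0.871, Junb 3.69 ± 0.817 and Nr4a1 1.85 ± 0.528 (SD, n = 4). Egr1, another immediate early gene, ranged from 9.27 in library 4 to 18.0 in library 2. Egr2 and Fosb lay below 1 at 0.353 ± 0.0320 and 0.296 ± 0.181, and Egr3 had reads in library 1 alone (0.104 nRPKM). Library 4 was the lowest for 6 of the 10 targets, among them Srf, which is also a partner, and Fosb with 3 reads there, and for 26.7% of all genes tested. No test was made of that count.

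Promoter sequence of 8 of the 10 genes was found in the RefSeq table (GRCm38.p6), 12 windows in all from 250 bases before to 50 after a start. The short ETS core GGAA on either strand occurs in 96.0% of all 32851 windows and in all 12, and so separates nothing. The longer core CCGGAA on either strand occurs in 14.9% of all windows and in 1 of the 12, in front of Elk4 at chr1:132007540-132007569 on the plus strand. It is shown with the match in capitals.
Elk4: ccggcccctcccCCGGAAgtgacgctcgcg
The match starts 68 bases before an annotated start, and it extends to CCGGAAGT, which 3.89% of all windows hold. A match shows letters and not binding.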

How the data were processed

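RNA of 4 libraries with the label KRasEtv wt was analysed. The deposited counts are reads aligned uniquely to each gene model, per the file headers. The deposited level is a size-factor-adjusted RPKM, per the file headers. GSNAP and mm9 were used, per the submitters' processing notes, and versions, annotation and strand use are, for these files, not given in the sources used here. Judged by its values, the level is the count times a library factor over a gene length (within 1% for all 12137 genes with at least 20 counts in every library).

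Symbols came from the RefSeq table of GRCm38.p6 by Entrez identifier (25035 of 28096 found). Sequences are of GRCm38, not of mm9, and no position in them was used with the counts. Members and gene lists were chosen with earlier results of these data known. The genes named were all 10 members, all genes of the ETS family, partner, target and sex-linked lists, and for the 3 members with the largest SD the 2 genes nearest in pattern. A gene of the partner list is not reported here by name. Marker genes were added from the lists to give their sums, and those singled out were chosen after their values were seen.

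Pairs of members were compared within libraries on log2(nRPKM + 1) by a two-sided exact sign-flip permutation test, adjusted by Benjamini-Hochberg over 45 pairs. Spread was tested on the counts of all genes with edgeR 4.0.16 in R 4.3.3 (intercept-only quasi-likelihood fit, TMM, filterByExpr, each quasi-dispersion against its trended prior, one-sided F, Benjamini-Hochberg) and checked on simulated data. DESeq2 1.42.0 dispersion outliers were an alternative, and others were the pseudocount, CPM, TMM or DESeq2 size factors, no filter, and leaving out each library. Intervals are exact 95% Poisson intervals and cover counting error only, since copies from PCR were not marked. Counts of 50 or more lie behind every member value. Libraries had a median Pearson r of 0.983 across genes for log2 levels, and the counts of every pair differed beyond counting noise (chi-square per degree of freedom from 42.5 to 123), so none was merged with another. This does not show that they came from separate mice.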

Additional observations from a re-analysis of the deposited data

Results flagged for a closer look

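Among 35 genes of the ETS, partner and target lists with a mean level of at least 1 nRPKM, 3 had a library far from the other 3 by Dixon's 95% criterion, which chance meets for about 1 in 20 genes. Ets1 in library 1 had 3.48 nRPKM against 1.58 to 1.83 in the others, with a gap of 0.868 of the whole range. Elk4 in library 2 had 13.5 nRPKM against 11.6 to 11.9, a gap of 0.871 of a range that was only 1.16-fold. Junb, an AP-1 gene, in library 4 had 2.48 nRPKM against 3.99 to 4.27. Elf5 in library 1 and Erf in library 4, which lie farther from the other libraries in fold, did not meet the criterion.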

How the results depend on the processing

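The summed level of the 10 genes stayed within 1 SD of 79.2 nRPKM with TMM library sizes and without each library in turn. So did each member's own level (50 of 50 alternatives). Leaving out a single library of 4 cannot move a mean by as much as 1 SD, so only the TMM setting could have failed. The count of 27 pairs in the same order became 27 with a pseudocount of 0.1, 30 with CPM and 27 to 32 without a library. A pseudocount cannot change the order within a library, and leaving out a library cannot lower the count. Only CPM could therefore have lowered it. Differences between members changed sign in 14 of 90 alternatives, each time within a set. With CPM these were Ets2 minus Elk3 (-0.22), Elk4 minus Ehf (-0.18), Elf5 minus Elk1 (-0.44), Elf3 minus Erf (-0.67) and Erf minus Ets1 (-0.40); the cause was not tested. Leaving out a library gave from -0.077 to 0.18 for Ets2 minus Elk3, from -0.031 to 0.19 for Elk4 minus Ehf, from -0.063 to 0.21 for Erf minus Ets1, from -0.024 to 0.22 for Elf1 minus Elk4, from -0.060 to 0.13 for Elk1 minus Elf3 and from -0.036 to 0.083 for Elf3 minus Erf. The 2 genes called for spread became 66 with no filter (20579 genes tested), 62 as DESeq2 outliers, 2 with DESeq2 size factors and 0 to 6 without a library. The count was 0 without library 2 or 3, with 640 and 619 genes at an unadjusted p under 0.05 in edgeR, and 6 without library 1. No alternative called any of the 10 genes, though the unadjusted edgeR p of Elf5 was 0.0241 with no filter, 0.0394 without library 3 and 0.0296 without library 4, that of Ets1 was 0.0486 without library 4, and without library 1 they were 0.826 and 0.914. The log2 range of single genes moved by over 1 SD in 16 of 70 alternatives. It fell for Ets1 from 0.80 to 0.13 and for Elf5 from 1.16 to 0.22 without library 1, for Elf3 from 0.57 to 0.16 and for Erf from 0.93 to 0.24 without library 4, and for Elk4 from 0.20 to 0.03 without library 2. The median range over the 10 genes was 0.32 to 0.57 without a library and 0.83 with CPM. The difference of Ets1 and Fli1 ran from 1.33 to 1.53 and that of Ehf and Elf5 from 1.55 to 1.91 without a library, alternatives added after the data were seen. No paired analysis was possible because there is a single group. Elf3, Elf5, Erf and Elk1 rest on the fewest reads, which limits their precision.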
